A study of Mus musculus with 8 samples.

Results

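The genes described here are 10 that the RAS to ERK signaling pathway switches on, either to restrain itself or to carry out its program: the phosphatases Dusp4, Dusp5 and Dusp6, the Sprouty genes Spry1, Spry2 and Spry4, the Spred genes Spred1 and Spred2, and the transcription factors Etv4 and Etv5. They were taken by name from a table of 18768 genes, and all 10 passed the filter on low counts, as did 15153 genes in all. They were chosen with earlier results of these data known, so their counts beside shares of all genes are a description. RNA was sequenced from 4 mouse fibrosarcoma cell lines, with 2 libraries per line. MC010 and MC011, labelled IRF8 KO, came from tumors of Irf8 knock-out mice, and MC654 and MC659, labelled WT, came from tumors of wild-type C57BL/6 mice. All the mice had received the carcinogen methylcholanthrene in peanut oil under the skin, and the dissected tumors were digested with collagenase, hyaluronidase and DNase I and passaged in culture until stable. Whether each line came from 1 tumor of 1 host is not stated in the sources used here. Genotype, host and tumor cannot be told apart with 2 lines per label. Nothing in the labels says that the 2 libraries of a line came from separate cultures, and p-values measure only the spread between these libraries.

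Growth factor receptors activate RAS, which passes the signal through the kinases RAF and MEK to ERK. Active ERK raises the transcription of genes that act back on the pathway, and the RNA of these genes is widely read as a record of recent ERK output. Phosphatases of the Dusp family remove phosphate from ERK, Sprouty and Spred proteins hold back RAS and RAF, and Etv4 and Etv5 are ETS-type activators that carry growth and invasion programs in many tumors. The repressor Capicua sits on several of these genes and is released when ERK is active.

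Promoter sequences are shown because all 10 genes answer to one pathway and because a Capicua site is a short, known string of letters. RefSeq windows on GRCm38.p6, from 250 bases before to 50 bases after the start of transcription, were found for 7 of the 10 genes. Dusp4, Spry4 and Etv4 are named only. The windows were searched on both strands for the Capicua octamers TGAATGAA, TGAATGGA, TCAATGAA and TCAATGGA. An octamer was present in the windows of Spry2 and Dusp6, and 3.84% of all 32851 windows held one. In Spry2 it lay 54 to 47 bases before the start. In Dusp6 one lay 24 to 17 bases before the start and a second at bases 2 to 9, counted from the start as base 1. The printed stretches end at the base before the start and are written 5′ to 3′ on the strand of the gene, with the octamer, here read on its other strand, in capitals. The stretch of Spry2 is chr14:105896820-105897069 on the minus strand and that of Dusp6 is chr10:99262981-99263230 on the plus strand.
Spry2 promoter: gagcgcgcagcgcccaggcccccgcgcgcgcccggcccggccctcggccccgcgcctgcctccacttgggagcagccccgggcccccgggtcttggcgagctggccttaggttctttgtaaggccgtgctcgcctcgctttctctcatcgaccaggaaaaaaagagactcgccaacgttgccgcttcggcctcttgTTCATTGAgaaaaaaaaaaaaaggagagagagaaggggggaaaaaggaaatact
Dusp6 promoter: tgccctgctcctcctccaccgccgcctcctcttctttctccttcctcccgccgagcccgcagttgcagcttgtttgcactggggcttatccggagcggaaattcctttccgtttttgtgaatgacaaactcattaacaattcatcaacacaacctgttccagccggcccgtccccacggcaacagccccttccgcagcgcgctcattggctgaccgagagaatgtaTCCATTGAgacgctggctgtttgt

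A different string stood out in Dusp5, a phosphatase gene in which no Capicua octamer was found in this window. Its window held a pair of adjoining CArG boxes, the string bound by serum response factor, a factor that ERK also acts on through its ETS partners. This search was added after the sequences had been read. The boxes lay 82 to 73 and 72 to 63 bases before the start. No CArG box was found in the windows of the other genes. At least 1 CArG box was held by 1.63% of all windows, and windows with an adjoining pair were not counted. The stretch, chr19:53528895-53529108 on the plus strand, stops before the earliest annotated start of the gene, and the capitals mark the 2 boxes.
Dusp5 promoter: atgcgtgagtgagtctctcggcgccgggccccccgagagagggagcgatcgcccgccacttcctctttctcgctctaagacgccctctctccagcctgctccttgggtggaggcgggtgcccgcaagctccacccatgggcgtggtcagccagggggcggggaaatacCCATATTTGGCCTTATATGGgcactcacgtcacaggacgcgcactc

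The AP-1 string TGANTCA, in 7.81% of all windows, the cAMP response element TGACGTCA, in 1.79%, and the ETS string CCGGAAGT, in 3.89%, were searched for in the same way and matched in none of the 7 genes. A match or its absence is a description of letters in a window and says nothing about binding.

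The libraries held 74063616 to 116206078 counts. The 2 libraries of a line differed from each other by more than counting noise, with a chi-square per degree of freedom of 7.59 to 13.0. That does not show whether they came from separate cultures or separate RNA. Irf8, the gene targeted in the knock-out mice, had 442 and 347 counts in MC010, 32 and 10 in MC011, 1 and 2 in MC654, and 1 and 0 in MC659, so its RNA was higher where the label is IRF8 KO. The study genotyped the lines and assigned them the labelled genotypes, and gene counts do not show which exons were read. Lines go by their labels throughout. All 9 mesenchymal markers were in the table, with Vim at 4532 to 7384 CPM, and their summed level was 10765.5 to 11871.2 CPM (reads scaled to library size with edgeR's TMM factors) in the IRF8 KO-labelled libraries and 15904.0 to 17537.8 CPM in those labelled WT. Fn1 alone ran from 1142 to 8132 CPM, and not every marker followed the sum. Pdgfrb had 278 and 274 CPM in MC011, 99.7 and 95.2 in MC010, and 113 to 135 CPM in the libraries labelled WT. The 5 hematopoietic markers in the table summed to 5.75 to 7.38 CPM against 9.83 to 11.8 CPM, nearly all of it Cd68, and Ptprc, which marks leukocytes, stayed at or under 0.177 CPM. The 5 endothelial markers in the table summed to 0.874 to 2.25 CPM against 0.465 to 0.683 CPM. The 4 epithelial markers in the table summed to 531 to 565 CPM in MC010, 33.3 to 34.7 CPM in MC011, 128 to 129 CPM in MC654 and 114 to 123 CPM in MC659, nearly all of it the keratins Krt8 and Krt18, while Epcam was at most 1.19 CPM. Whether these shifts have a part in the values below was not tested.

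The first comparison asked whether the feedback and output genes differed between the IRF8 KO-labelled lines and those labelled WT. Spry2 and Spry4, a pair of Sprouty genes, were higher in the IRF8 KO-labelled libraries by 3.34-fold and 3.84-fold, Etv5 was higher by 1.64-fold, and Dusp4 was 1.59-fold lower. A gene was called when its p, adjusted over the 15153 genes tested with the edgeR quasi-likelihood method, was under 0.05 and its log2 fold change was over 0.59 in size. By that rule 3 of the 10 genes were higher, where 13.7% of all genes tested were, and 1 was lower, where 8.72% were. The same 4 genes were those whose 4 libraries of one label did not overlap the other 4, again 3 higher beside 22.1% of all genes and 1 lower beside 20.5%. The median log2 fold change was 0.57 over the 10 genes and 0.02 over all genes tested. The 2 libraries of each line were then added together, which leaves 2 lines against 2. In edgeR 0 of the 10 genes and 0 of all genes passed this way. An unadjusted p under 0.05 was found for 3 of the 10 genes and for 3361 of all 15153 genes.

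**Figure D1:**
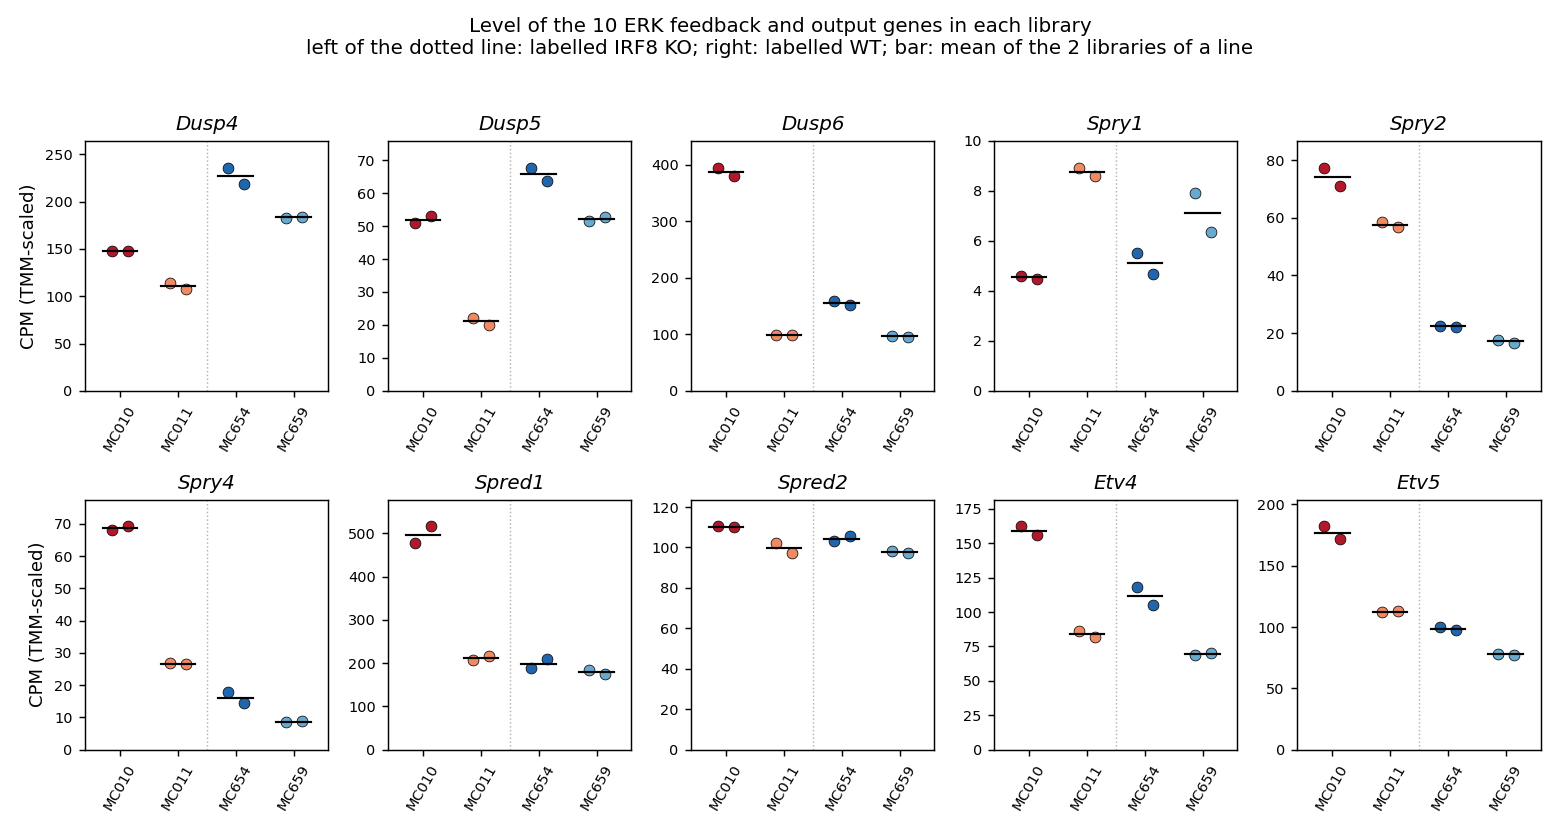
Each panel plots the TMM-scaled CPM of 1 gene, on an axis from 0, in the 2 libraries of each line, with the line's mean as a bar, red shades for the IRF8 KO-labelled lines and blue shades for those labelled WT. The labels separate without overlap for Dusp4, Spry2, Spry4 and Etv5, MC010 stands above the other 3 lines for Dusp6 and Spred1, and the 8 values of Spred2 lie between 97.3 and 110.4 CPM.

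Spry2 (chromosome 14 of mm10, 105891947 to 105896819, minus strand) encodes a Sprouty protein that blocks RAS and RAF activation downstream of receptor kinases, and is 1 of the 2 genes with a Capicua octamer printed above. It had 77.4 and 71.2 CPM in MC010, 58.4 and 56.9 in MC011, 22.6 and 22.2 in MC654, and 17.8 and 16.5 in MC659. Every library labelled IRF8 KO lay above every library labelled WT, and the step between MC011 and MC654 was wider than either step within a label. The means were 65.9 ± 9.96 CPM (SD, n = 4 libraries of 2 lines) and 19.8 ± 3.08 CPM (SD, n = 4), for a log2 fold change of 1.74 (standard error, SE, 0.15, adjusted p = 0.000102). It was the 1 gene of the 10 with an adjusted p under 0.05 in all 8 fits that left out a library and all 4 that left out a line, where its log2 fold change ran from 1.53 to 1.95.

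Spry4, another Sprouty gene, lies on the same side of the pathway and showed the same order of lines over a wider range. Its values were 68.2 and 69.2 CPM in MC010, 26.8 and 26.5 in MC011, 17.8 and 14.5 in MC654, and 8.53 and 8.83 in MC659. All 4 lines were apart from each other, and the mean of MC010 was 7.92 times that of MC659, the widest range of line means among the 10 genes. By label the means were 47.7 ± 24.3 CPM (SD, n = 4) and 12.4 ± 4.54 CPM (SD, n = 4), for a log2 fold change of 1.94 (SE 0.42, adjusted p = 0.00841). Without MC010 the log2 fold change was 1.09 (adjusted p = 0.0414). Leaving out MC659 raised the adjusted p to 0.102 with a log2 fold change of 1.56. The small genes Gm27369 and Gm27804, which lie on the opposite strand within Spry4, were not analysed here.

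Spry1 (chromosome 3, 37639947 to 37644598, plus strand), also of the Sprouty family, did not follow the other two. It had 4.61 and 4.48 CPM in MC010, 8.93 and 8.58 in MC011, 5.53 and 4.67 in MC654, and 7.90 and 6.37 in MC659. MC011 and MC659 held the higher values, 1 line of each label, so the labels overlapped. The log2 fold change by label was 0.12 (SE 0.29, adjusted p = 0.777) and turned negative without MC011 or either of its libraries, or without MC654. The opposite-strand gene Gm42922, which overlaps Spry1, had 0 to 7 counts per library.

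Dusp4 (chromosome 8, 34807297 to 34819894, plus strand), a nuclear phosphatase that acts on ERK and other MAP kinases, was the 1 gene of the 10 called lower in the IRF8 KO-labelled lines. Its libraries had 148 and 147 CPM in MC010, 114 and 107 in MC011, 236 and 219 in MC654, and 183 and 184 in MC659. The 4 libraries labelled WT all lay above the 4 labelled IRF8 KO. Means of 129 ± 21.4 CPM (SD, n = 4) and 205 ± 26.4 CPM (SD, n = 4) gave a log2 fold change of -0.67 (SE 0.14, adjusted p = 0.00639). Without MC654 the adjusted p was 0.0779, and without MC011 the log2 fold change was -0.47 with an adjusted p of 0.00612, which is under the threshold on size.

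Dusp5 (chromosome 19, 53529109 to 53542431, plus strand), a nuclear phosphatase selective for ERK, had 50.9 and 53.1 CPM in MC010, 22.2 and 20.1 in MC011, 67.7 and 63.6 in MC654, and 51.6 and 52.7 in MC659. Only MC011 stood low, and MC010 and MC659 differed by -0.01 on the log2 scale (SE 0.06, adjusted p = 0.940). By label the log2 fold change was -0.69 with a standard error of 0.33, and its adjusted p of 0.143 missed the threshold. With MC010 left out it was -1.49 (adjusted p = 3.07e-05). The gene AC137853.2, which overlaps Dusp5 on the opposite strand, was not analysed here, and whether the counting used strand is not given in the sources used here.

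Dusp6 (chromosome 10, 99263231 to 99267489, plus strand) encodes a cytoplasmic phosphatase selective for ERK and carries the other Capicua octamer shown above. It had 395 and 380.0 CPM in MC010, 98.8 and 98.4 in MC011, 160 and 153 in MC654, and 97.9 and 94.8 in MC659. MC010 was far above the rest, and MC011 lay close to MC659, from which it differed by 0.03 on the log2 scale (SE 0.05, adjusted p = 0.559). The labels overlapped, with a log2 fold change of 0.95 (SE 0.51, adjusted p = 0.184) that became -0.37 (adjusted p = 0.324) without MC010 and 1.62 (adjusted p = 0.00283) without MC011. The 3 phosphatase genes gave 2 orders of the lines from high to low: MC654, MC659, MC010 and MC011 for Dusp4, the same for Dusp5 with its middle lines not apart, and MC010, MC654, MC011 and MC659 for Dusp6 with the last 2 not apart.

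Spred1 and Spred2 encode membrane proteins that bring neurofibromin to RAS and hold RAF in check, and they differed from each other. Spred1 (chromosome 2, 117121374 to 117182279, plus strand) had 478 and 516 CPM in MC010, 206 and 216 in MC011, 188 and 209 in MC654, and 184 and 175 in MC659. MC010 was 2.36 times the level of MC011 by the fit. Of the other 3 lines, neighbours in the order were not apart, while MC011 was above MC659 by 0.23 on the log2 scale (SE 0.06, adjusted p = 0.00208). Its log2 fold change by label was 0.90 (SE 0.31) and its adjusted p of 0.0527 just missed the threshold. DESeq2 gave 0.90 with an adjusted p of 0.0128, and without MC010 the log2 fold change was 0.15 with an adjusted p of 0.102. Without MC011 the adjusted p was 2.59e-07.

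Spred2 (chromosome 11, 19924375 to 20024026, plus strand) was the most even of the 10 genes. It had 110.4 and 110.2 CPM in MC010, 102 and 97.3 in MC011, 103 and 106 in MC654, and 98.3 and 97.4 in MC659. The highest line mean was 1.13 times the lowest, and no neighbours in the order of the lines differed at an adjusted p under 0.05. By label the log2 fold change was 0.06 (SE 0.06, adjusted p = 0.497).

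Etv5 (chromosome 16, 22381309 to 22439719, minus strand), an ETS factor of the PEA3 type and a classic output of ERK, had 182 and 172 CPM in MC010, 112 and 113 in MC011, 100.2 and 97.5 in MC654, and 78.1 and 77.5 in MC659. The labels did not overlap, although the step from MC011 to MC654 was small. Means of 145 ± 37.5 CPM (SD, n = 4) and 88.3 ± 12.2 CPM (SD, n = 4) gave a log2 fold change of 0.71 (SE 0.19, adjusted p = 0.0197). This call was the least steady of the 4. The adjusted p was under 0.05 in 5 of the 8 fits without a library and in 2 of the 4 without a line, and it was 0.187 without MC659. Without MC010 the log2 fold change was 0.33 with an adjusted p of 0.0476. Without only replicate 1 of MC010 it was 0.58 with an adjusted p of 0.0431. Both log2 fold changes are under the threshold on size.

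Etv4 (chromosome 11, 101769742 to 101785371, minus strand), the closest relative of Etv5 among the 10, had 162 and 156 CPM in MC010, 86.0 and 81.6 in MC011, 118 and 105 in MC654, and 68.6 and 70.3 in MC659. Here the second line in the order was MC654 and not MC011, so the labels interleaved. The log2 fold change by label was 0.42 (SE 0.29, adjusted p = 0.289), and it was -0.13 without MC010 and 0.82 (adjusted p = 0.0376) without MC011.

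Levels can be compared between genes only per length. Divided by the length of their annotated exons, Dusp4 and Dusp6 were the most abundant, at a mean of 61.0 and 59.0 CPM per kb over the 8 libraries, followed by Spred1 at 40.0, Etv4 at 34.2, Etv5 at 28.4, Spred2 at 22.3, Spry2 at 20.5 and Dusp5 at 19.3 CPM per kb. Spry4, at 6.32 CPM per kb, and Spry1, at 2.20 CPM per kb, were the lowest. For Spry4 the length comes from an annotation whose coordinates for the gene differ from those in the table.

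The second comparison set the 2 lines of each label against each other, and most of the 10 genes differed within a label too. Relative to MC011, MC010 had more RNA of all but Spry1, from Dusp6, 3.93-fold higher, through Spry4 at 2.58-fold, Dusp5 at 2.45-fold, Spred1 at 2.36-fold and Etv4 at 1.90-fold to Etv5 at 1.57-fold among those called. Spry1 was 1.93-fold lower. So 6 of the 10 genes were called higher in MC010 than in MC011, where 15.7% of all genes tested were, and 1 was called lower, where 16.0% were. The median log2 difference was 0.79 over the 10 genes and 0.00 over all genes. Dusp4, Spry2 and Spred2 also had an adjusted p under 0.05, with log2 differences of 0.41, 0.37 and 0.14 that lay under the threshold on size. The keratin level given above was also higher in MC010 than in MC011, and its part in these differences was not tested.

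The lines labelled WT were closer to each other, and the genes that set them apart were again higher in the first. Dusp6, Spry4 and Etv4 were higher in MC654 than in MC659, by 1.62-fold, 1.86-fold and 1.61-fold (adjusted p = 8.16e-08, 3.90e-06 and 9.03e-07). That is 3 of the 10 genes, where 1.24% of all genes tested were called higher. By edgeR 0 were called lower, where 3.71% of all genes were, and the same count came from DESeq2. Spry1, at a log2 difference of -0.48 (SE 0.13, adjusted p = 0.0200), had an unadjusted p under 0.05 but lay under the threshold on size. The other 9 log2 differences were above 0, from 0.09 for Spred2 to 0.90 for Spry4, and the median over the 10 genes was 0.34, beside 0.00 over all genes tested.

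**Figure D2:**
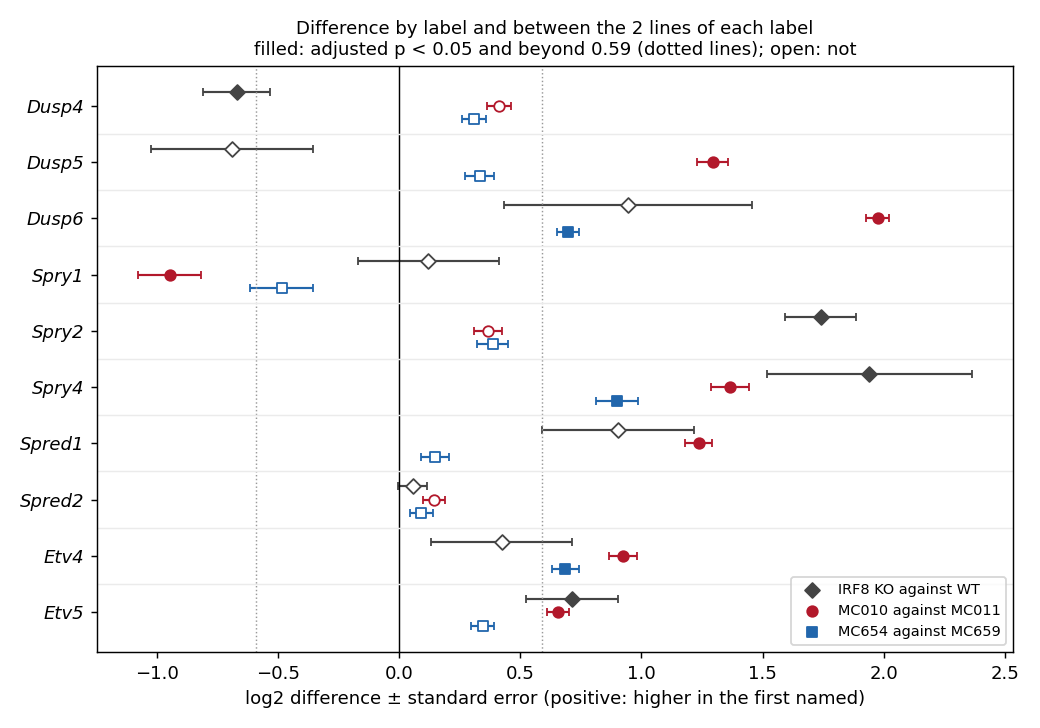
For each gene, markers give the log2 difference with its standard error for the 4 IRF8 KO-labelled libraries against the 4 labelled WT (grey diamonds), MC010 against MC011 (red circles) and MC654 against MC659 (blue squares), filled where called. The estimate for MC010 against MC011 is larger in size than that by label for Dusp5, Dusp6, Spry1, Spred1, Spred2 and Etv4, Spry2 differs by 1.74 between the labels and by under 0.4 within either label, and Spry1 is the 1 gene below 0 in both comparisons within a label.

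Each line labelled IRF8 KO was also set against each line labelled WT. These 4 comparisons share lines and are given side by side. Against MC654, MC010 had 5 genes called higher (Dusp6, Spry2, Spry4, Spred1 and Etv5, beside 19.6% of all genes) and 1 lower (Dusp4, beside 16.3%). Against MC659 it had the same 5 and Etv4 higher (beside 19.1%) and Spry1 lower, at a log2 difference of -0.65 (beside 17.7%). MC011 against MC654 was split evenly, with Spry1, Spry2 and Spry4 higher by 0.78, 1.36 and 0.72 on the log2 scale (beside 17.2%) and Dusp4, Dusp5 and Dusp6 lower, at -1.04, -1.63 and -0.66 (beside 12.4%). Against MC659 it had Spry2 and Spry4 higher, by 1.75 and 1.62 (beside 16.6%), and Dusp4 and Dusp5 lower, at -0.73 and -1.30 (beside 13.7%). Spry2 and Spry4 were called higher in each of the 4 comparisons. Dusp4 was lower in each, by 0.31 on the log2 scale for MC010 against MC659 (SE 0.05, adjusted p = 3.95e-05), which is under the threshold on size.

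Across the 4 lines, MC010 held the highest mean of 7 of the 10 genes and MC659 the lowest of 7. Among all genes tested, MC010 was highest for 32.8% and MC659 lowest for 20.7%. The exceptions at the top were Dusp4 and Dusp5, highest in MC654, and Spry1, highest in MC011. Those at the bottom were Dusp4 and Dusp5, lowest in MC011, and Spry1, lowest in MC010. The means of all 4 lines were apart at an adjusted p under 0.05 for Dusp4, Spry2, Spry4, Etv4 and Etv5. Neighbours in the order were not apart for MC659 and MC010 in Dusp5, MC011 and MC659 in Dusp6, the upper and the lower pair in Spry1, the 3 lower lines in Spred1, and all steps in Spred2.

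**Figure D3:**
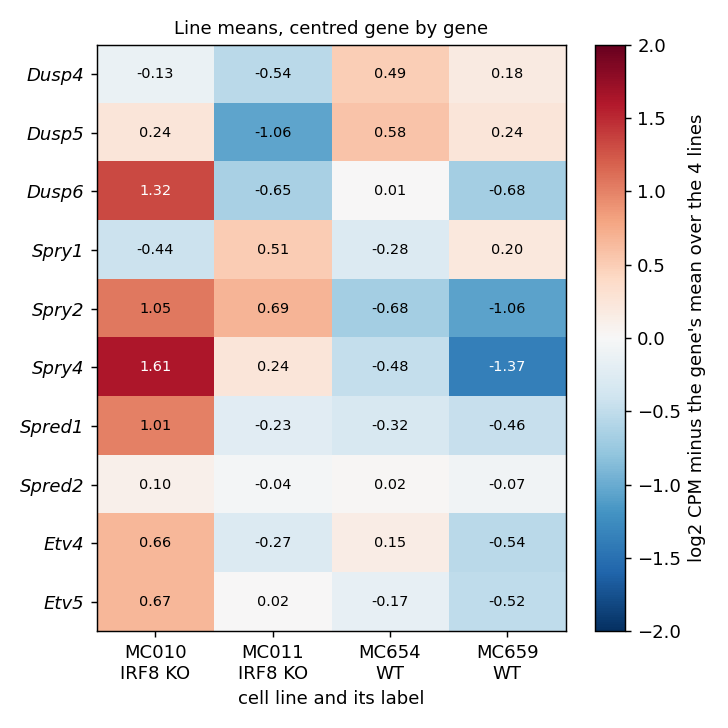
Each cell gives the mean log2 CPM of a gene in a line minus the gene's mean over the 4 lines, with red for above and blue for below. The column of MC010 runs from -0.44 for Spry1 to 1.61 for Spry4, that of MC659 is below 0 for all but Dusp4, Dusp5 and Spry1, and the row of Spred2 stays within 0.10 of 0.

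By a set rule, the genes with the profile nearest to Spry4, the gene of the 10 with the widest range, were looked up among the 15153 tested, by the root-mean-square distance of centred log2 line means over the 4 lines. They were Phyhipl at 0.16, Grem1, an antagonist of bone morphogenetic proteins, at 0.19, Gm28932 at 0.19, 4833427G06Rik at 0.19 and Procr, the endothelial protein C receptor, at 0.20. With 4 lines such distances only describe the profiles.

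The rest of the pathway was read from 7 lists of 77 genes, of which 73 were tested. Of these, 13 were called higher in the IRF8 KO-labelled libraries, where 13.7% of all genes tested were, and 10 lower, where 8.72% were, and their median log2 fold change was 0.03. Those shares of all genes apply beside the count of called genes in every list below. With 3 to 20 genes tested per list the counts are given as a description. Genes of these lists were not followed 1 by 1 through the alternatives. Of 20 signal carriers from RAS to ERK, 2 were called, the RAS relatives Rras2 and Mras. They were higher by 0.88 and 0.64 on the log2 scale (adjusted p = 0.00168 and 0.000910). At any size of change, 8 of the 20 had an adjusted p under 0.05. The shares above do not apply to that count, and the matching share of all genes is not given here. In the same fit 7109 of all 15153 genes had an unadjusted p under 0.05. The MEK and ERK kinase genes Map2k1 and Mapk3 were at -0.52 and -0.55 (adjusted p = 0.0150 and 0.0372), under the threshold on size. Araf was not analysed here.

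Genes that restrain RAS or RAF by other routes were called in both directions, 1 higher and 2 lower of 9. Dab2ip, a RAS GTPase-activating protein, had a log2 fold change of 1.74 (adjusted p = 2.42e-06). Nf1, the RAS GTPase-activating protein neurofibromin that Spred proteins recruit, was at -0.72 (adjusted p = 0.0447) and Lztr1, an adaptor that marks RAS proteins for degradation, at -0.66 (adjusted p = 0.0405). Both were lower in MC010 than in MC011, by 0.93 and 0.83 on the log2 scale, the reverse of Spred1. Of 6 other MAP kinase phosphatases, Dusp1, an immediate early gene, was at 2.05 and Dusp7 at 0.70 while Dusp2 was at -2.12 (adjusted p = 0.00255, 0.000470 and 0.00545). Dusp1 was highest in MC011, with 42.4 and 42.8 CPM against 17.5 and 18.7 CPM in MC010, and 6.10 to 8.53 CPM in the libraries labelled WT.

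Among 4 relatives of the 10 genes, Etv1, which belongs with Etv4 and Etv5 to the PEA3 group, was called higher. It had 87.7 and 95.4 CPM in MC010, 42.9 and 42.4 in MC011, 6.92 and 8.10 in MC654, and 5.84 and 6.13 in MC659, the order of lines also seen for Spry2, Spry4 and Etv5. The labels were far apart, with a log2 fold change of 3.32 (SE 0.32, adjusted p = 0.000181). Spry3 was called lower, at -2.91 (adjusted p = 0.000746), and was at most 0.907 CPM in any library.

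Other outputs of ERK were split, with 5 of 20 called higher and 3 lower. The 3 lower were the early growth response genes Egr1, Egr2 and Egr3, zinc-finger factors that are induced within minutes of stimulation. Egr1 had 65.1 and 63.0 CPM in MC010, 26.6 and 26.4 in MC011, 374 and 350 in MC654, and 367 and 373 in MC659, a log2 fold change of -3.01 (SE 0.34, adjusted p = 0.000389). Egr2 and Egr3 were at -2.97 and -1.86 (adjusted p = 0.00302 and 0.00283). On the other side, the ephrin receptor gene Epha4 had 270 to 421 counts in the IRF8 KO-labelled libraries and 0 or 1 in those labelled WT, at least 106-fold higher against a floor of 3 counts per library. The other 4 called higher were Ier3, Jun, Fosl1 and Epha2, which fall outside the rule for naming and were named after their values were seen, at log2 fold changes of 0.77 to 1.15.

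By label, the subunits of the Capicua complex gave adjusted p-values of 0.357 for Cic, 0.155 for Atxn1 and 0.680 for Atxn1l, at log2 fold changes of -0.19, -0.37 and 0.04. They did differ between MC010 and MC011, by -0.53, -0.70 and 0.24 (adjusted p = 3.71e-05, 5.11e-07 and 0.000251). Of these, Atxn1 was called lower, as were 16.0% of all genes tested. Whether this has a part in the values of the 10 genes was not tested. Of 11 receptor kinases upstream, 2 were called higher and 3 lower. Pdgfra, the alpha receptor for platelet-derived growth factor, had 70.2 and 72.4 CPM in MC010, 445 and 446 CPM in MC011, and 17.1 to 19.9 CPM in the libraries labelled WT, a log2 fold change of 3.82 (SE 0.70, adjusted p = 0.00376). Egfr was at 1.39 to 5.13 CPM against 23.3 to 29.0 CPM, a log2 fold change of -3.01 (SE 0.42, adjusted p = 0.00103). Erbb3, at 2.35 (adjusted p = 0.0111), was at most 1.73 CPM, and Fgfr2 was at -0.81 (adjusted p = 0.0458). The fifth, Axl, was at -0.80 (adjusted p = 0.000317) and was named after its value was seen.

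**Figure D4:**
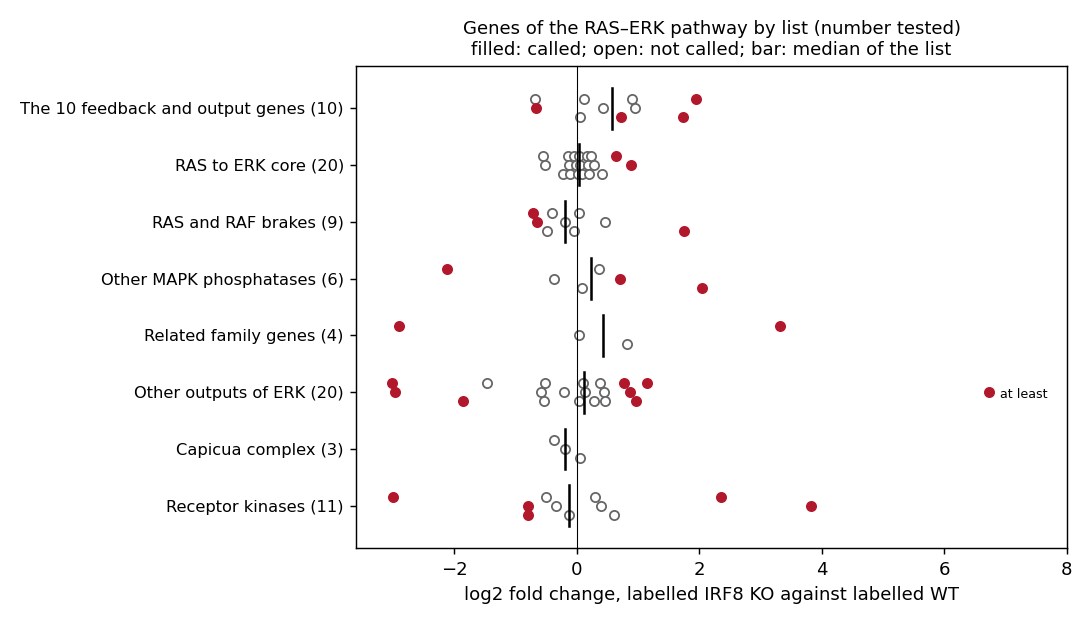
Each point is the log2 fold change of 1 gene between the 4 IRF8 KO-labelled libraries and the 4 labelled WT, by list, filled where called, with the list's median as a bar. The 10 feedback and output genes have a median of 0.57, that of the RAS to ERK core is 0.03, and Epha4 is drawn at its lower bound.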

How the data were processed

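RNA of 8 libraries was sequenced from a stranded mRNA preparation. The authors used STAR on mm10 and HTSeq, and deposited raw counts per gene, a signal (counts over a DESeq2 size factor) and their own DESeq2 comparison. That deposited comparison (log2 fold changes, Wald scores, raw and adjusted p-values) was not used. No X or Y gene was analysed here. Groups follow the labels' cell line and genotype. Raw counts were scaled by TMM, filtered with filterByExpr by label and compared with edgeR 4.0.16 (R 4.3.3), quasi-likelihood test, robust, two-sided, Benjamini-Hochberg adjusted. One fit compared the labels and another had 1 group per line. SE is the log2 fold change divided by the square root of F. Alternatives were DESeq2 1.42.0, other scalings, no filter, no fold threshold, the library number as a block, each library or line left out, line sums, and limma 3.58.1 voom with line as a random block. Named genes were the 10, Irf8, up to 4 called genes with the largest fold change per list, any core or Capicua gene, and the 5 nearest profiles. The 10 genes, lists and motifs were chosen with earlier results of these data known. The fits were tested on simulated data. For the fit by label, the lines of one label were drawn alike, so calls that arise from differences between lines were not tested. Floors cover counting error only. Values of 1 listed gene are not reported here.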

Additional observations from a re-analysis of the deposited data

Results flagged for a closer look

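MC010 and MC011, both labelled IRF8 KO, were unlike each other, and so in their difference from the lines labelled WT, at an adjusted p under 0.05 and over 0.59 in size for 7 of the 10 genes. Of all genes tested, 15.7% were called higher in MC010 than in MC011 and 16.0% were called lower. The log2 differences of MC010 against MC011 were 1.98 for Dusp6, 1.37 for Spry4, 1.29 for Dusp5, 1.24 for Spred1, 0.92 for Etv4, 0.66 for Etv5 and -0.95 for Spry1. Each of the 20 groups of 4 libraries, 1 per gene and label, was also checked for a library far from the other 3, and 0 were found. Each group held 2 lines, so a gap between the lines widens the spread and can hide such a library.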

How the results depend on the processing

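Of 10 genes, 4 were called by label. That count was 6 without MC011, all higher (Dusp6, Spry2, Spry4, Spred1, Etv4 and Etv5), 4 without MC010, 2 higher (Spry2 and Spry4) and 2 lower (Dusp4 and Dusp5), 2 without MC654 (Spry2 and Spry4), 2 without MC659 (Spry2 and Dusp4), and 0 with the libraries of a line added together, and it ran from 3 to 5 with 1 library left out. It was 4 with limma-voom and line as a random block and 4 with a replicate block on library number. The share of all genes tested that were called by label moved too. It was 22.46% in the main fit, 35.25% without MC011, 28.49% without MC010, 14.14% without MC654 and 13.05% without MC659. With 1 library left out it ran from 18.85% to 23.4%. It was 0% with line sums, 12.45% with limma-voom and 20.5% with the replicate block. Libraries with the same number did not deviate together over the genes tested (r from -0.0273 to 0.0552), and the replicate block changed no count between lines. Whether same-numbered libraries were prepared together is not given in the labels. Without a threshold on size, 8 genes passed between MC654 and MC659 in place of 3, 7 between MC011 and MC659 in place of 4, and 37 other pathway genes passed by label in place of 23, a count that was 0 with line sums. The shares of all genes that passed without that threshold are not given here. Some log2 fold changes by label turned over: Dusp6 to -0.37, Spred2 to -0.030 and Etv4 to -0.13 without MC010, and Spry1, between -0.055 and 0.27 with 1 library left out, to -0.055 and -0.033 without either library of MC011, -0.42 without MC011 and -0.10 without MC654. The cause was not tested. No scaling alternative turned a direction among the 10 genes. With 2 lines per label, differences of the size of those between lines of one label limit what can be seen by label.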
